A study of Mus musculus with 4 samples.

Results

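The enzymes and carriers examined here make, move and consume citrate, malate, oxoglutarate and aspartate: 31 genes of the tricarboxylic acid (TCA) cycle, of citrate export and of the malate-aspartate shuttle, out of 49671 genes in the deposited table. The genes were chosen by name for their place in the pathway, by a rule that uses no measured value but with earlier results of these data known, and all 31 were found in the table. RNA-seq had been performed on sorted epithelial cells from the tips of the ventral prostate lobe of untreated CD-1 mice at postnatal days 10 to 13. At this age basal cells of the tips are multipotent, and the luminal cells beside them derive from them. Basal cells carried high EpCAM and high CD49f at the surface and luminal cells high EpCAM and low CD49f, after cells positive for CD45, CD31 or CD140a had been sorted away, and each group had 2 libraries, which the labels number 1 and 3 (basal) and 3 and 2 (luminal). The tissue came from many animals, and nothing in the sources used here says how they were divided among libraries, so the spread between them may be technical. The comparison asks whether basal cells and the luminal cells derived from them differ in transcripts of the cycle.

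In the TCA cycle, citrate synthase joins acetyl-CoA to oxaloacetate, and the cycle then returns citrate through isocitrate, oxoglutarate, succinate, fumarate and malate to oxaloacetate. Citrate can also leave the mitochondrion for lipid synthesis or secretion, and the prostate is known for secreting large amounts of it. The malate-aspartate shuttle carries reducing equivalents from the cytosol into the mitochondrion, using paired enzymes on both sides of the inner membrane and carriers for malate and aspartate.

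Values are normalized reads, gene counts that the authors scaled to a shared total and rounded, so that each library sums to between 19998940 and 20071189. Between 98.3% and 99.2% of low values per library stepped by what 1 read is worth, from 6.26 normalized reads in basal replicate 1 to 31.2 in luminal replicate 2, which gave 643267 to 3194307 reads on genes. Both luminal libraries were shallower than both basal libraries, so depth and cell type cannot be told apart. Nuclear protein-coding genes held 74.7% and 76.0% of the values in the basal libraries and 57.3% and 64.2% in the luminal ones. The 5 basal markers summed to 58904 and 76943 in basal libraries and to 5328 and 6583 in luminal ones, and the 6 luminal markers to 14779 and 18655 against 30446 and 49761. Of the 11 stromal and smooth muscle markers none was at 0 in all libraries, and their sums were 130126 and 253892 among the basal libraries (the higher in replicate 3) and 81759 and 251481 among the luminal ones (the higher in replicate 2). Pdgfra, the gene of CD140a, held 2575 to 8383 in the 4 libraries although the sort excluded cells with this protein. The 5 immune markers summed to 213 to 1190, the 3 endothelial to 387 to 1347 and the 2 erythroid to 0 to 31, with Ptprc at 0 in both luminal libraries. A total of 561 genes had at least 1 value off the spacing of its library, and Slc25a10 was the single gene of the pathway set among them.

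Of the 31 genes, 30 passed the filter on low values, which asked that every library of at least 1 group hold 10 or more and that the group's average be 20 or more. The exception was Slc13a5, the sodium-coupled citrate importer of the plasma membrane, listed at 0 in all 4 libraries, which allows up to 3 reads, or 18.8 to 93.5 normalized reads depending on the library. The ratio of luminal to basal averages was 2 or more for 3 of the 30 genes, namely Suclg1, Me1 and Slc25a10, and 0.5 or less for 3, namely Dld, Me3 and Slc25a13. Over all 18737 genes that passed the filter, 18.3% were at 2 or more and 16.3% at 0.5 or less, against 10.0% of the 30 genes in each direction. The gap was smaller with a stricter filter. Once an average of at least 100 was required, the shares were 11.5% and 12.9% of all genes against 10.3% of the 29 remaining genes in each direction. With both groups required to pass the filter they were 12.4% and 12.0% against 10.3% and 6.90%. limma, fitted to log2 of the value plus 1 over all these genes with Benjamini-Hochberg adjustment, called none of the 30 higher and none lower, against 0.256% (48 genes) higher and 0.438% (82 genes) lower in the background, or 324 and 114 genes after quantile normalization. At an unadjusted p under 0.05, limma had 3 of the 30 genes, namely Dld, Suclg1 and Slc25a10, or 10.0% against 18.5% of all genes. edgeR on recovered reads also called 0 of the 29 genes it could test, with Slc25a13, Dld, Ankh and Suclg1 at an unadjusted p under 0.05, and DESeq2 called 0 with Slc25a13 and Suclg1 at that level, against backgrounds of 5.17% and 4.39% called and of 19.1% and 11.2% at that unadjusted level. An exact permutation test of 2 libraries against 2 cannot give a two-sided p below 0.333.

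The upstream sequence of the 4 of these 6 genes that have a stretch of 100 bases or more free of annotated exons is shown, since both directions are represented. Each is the RefSeq sequence (build GRCm38.p6) before the start site, read 5′ to 3′ on the gene's strand, with matches to the motifs described after the isozymes in capitals. Suclg1 lies at chr6:73248255-73248381 on the plus strand, Me1 at chr9:86695954-86696164 on the minus strand, Dld at chr12:31351472-31351721 on the minus strand and Slc25a13 at chr6:6217174-6217423 on the minus strand. Me1 also has a second RefSeq start, whose stretch is not shown.
Suclg1: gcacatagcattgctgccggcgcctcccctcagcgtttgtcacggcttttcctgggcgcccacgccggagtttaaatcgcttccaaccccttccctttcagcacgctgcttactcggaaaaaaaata
Me1: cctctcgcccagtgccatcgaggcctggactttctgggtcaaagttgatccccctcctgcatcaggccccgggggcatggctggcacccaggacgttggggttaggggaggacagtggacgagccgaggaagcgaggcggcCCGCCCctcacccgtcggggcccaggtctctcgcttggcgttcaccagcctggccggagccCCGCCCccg
Dld: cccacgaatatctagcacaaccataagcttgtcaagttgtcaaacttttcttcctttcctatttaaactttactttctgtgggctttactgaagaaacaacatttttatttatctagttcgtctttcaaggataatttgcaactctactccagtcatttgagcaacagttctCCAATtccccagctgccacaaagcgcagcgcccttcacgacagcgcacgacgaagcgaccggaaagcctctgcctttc
Slc25a13: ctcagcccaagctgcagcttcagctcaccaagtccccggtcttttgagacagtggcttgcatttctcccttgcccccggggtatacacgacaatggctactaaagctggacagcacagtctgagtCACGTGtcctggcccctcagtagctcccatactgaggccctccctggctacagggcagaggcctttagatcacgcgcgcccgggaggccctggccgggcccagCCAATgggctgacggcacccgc

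Nothing in the citrate and isocitrate steps passed either fold threshold. Cs, citrate synthase, held 1910 and 1858 normalized reads in basal libraries and 1317 and 1278 in luminal libraries. The groups did not overlap, and the 2 libraries within a group lay close together. The fitted log2 fold change of Cs, luminal minus basal, was -0.54 ± 0.23 (SE), with a limma adjusted p of 0.289. Aco1, the cytosolic aconitase that also acts as an iron-responsive RNA-binding protein, held 1015 and 624 in basal and 523 and 561 in luminal libraries, again without overlap. Idh3a, the catalytic subunit of the NAD-dependent isocitrate dehydrogenase, held 708 and 507 against 426 and 405, and Idh3g, a regulatory subunit, 1152 and 1013 against 949 and 748. For these 4 of 7 genes each luminal library lay below each basal one, against 27.3% of all genes. This held for 3 of the 7 after quantile normalization and for Cs alone when scaled to the nuclear protein-coding total, against 23.5% and 18.0% of all genes. The other regulatory subunit, Idh3b, held 1008 and 1306 against 1123 and 1091, so its luminal libraries lay between the basal ones. Idh1 and Idh2, the cytosolic and mitochondrial NADP-dependent isocitrate dehydrogenases, overlapped between groups, with 1102 and 539 against 949 and 623 for Idh1 and 795 and 676 against 716 and 467 for Idh2.

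From oxoglutarate to succinate, 5 of 6 genes had each luminal library below each basal one, and Suclg1 had both above, against 27.3% and 23.6% of all genes. Scaled to the nuclear protein-coding total, where 18.0% of all genes lay below, Dld and Sucla2 kept this separation and the other 3 overlapped, with all 5 log2 fold changes still negative. Suclg1 encodes the alpha subunit that both forms of succinyl-CoA synthetase share. It held 582 and 442 normalized reads in basal libraries and 1259 and 1122 in luminal libraries, averages of 512 ± 99.0 and 1190.5 ± 96.9 (SD, n = 2 each). Its luminal libraries were both above its basal ones by more than the spread within either group. The luminal average was 2.33 times the basal one and the fitted log2 fold change was 1.23 ± 0.30 (SE), with an adjusted p of 0.100 by limma and 0.0679 by edgeR. The ratio stayed at 2 or more under all 13 alternatives tried, between 2.05 and 2.90. Its partners did not share this direction. Sucla2, the beta subunit of the ADP-forming enzyme, held 914 and 792 against 542 and 561, and Suclg2, that of the GDP-forming enzyme, 852 and 754 against 736 and 436.

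Each of the 3 genes of the oxoglutarate dehydrogenase complex had a lower luminal average. Ogdh, which decarboxylates oxoglutarate, held 3000 and 2663 in basal and 2595 and 1465 in luminal libraries, and Dlst, the succinyltransferase core, 1491 and 1501 against 1200 and 686. In both genes luminal replicate 3 was nearer to the basal libraries than luminal replicate 2. Dld, the dihydrolipoamide dehydrogenase that this complex shares with pyruvate dehydrogenase and the branched-chain complex, held 1271 and 1475 against 639 and 717, averages of 1373 ± 144 and 678 ± 55.2 (SD, n = 2 each). Its groups were separated by more than their spread. The Dld ratio was 0.494, and the fitted log2 fold change was -1.02 ± 0.27 (SE), with a limma adjusted p of 0.120. This value lay close to the threshold, and the ratio was 0.505 with median-ratio rescaling, 0.562 with quantile normalization and 0.611 when scaled to the nuclear protein-coding total, each above 0.5. It was also above 0.5 without basal replicate 3, at 0.533, and without luminal replicate 3, at 0.522, and by DESeq2 at 0.506, so that Dld was past the threshold in 7 of the 13 alternatives.

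**Figure D1:**
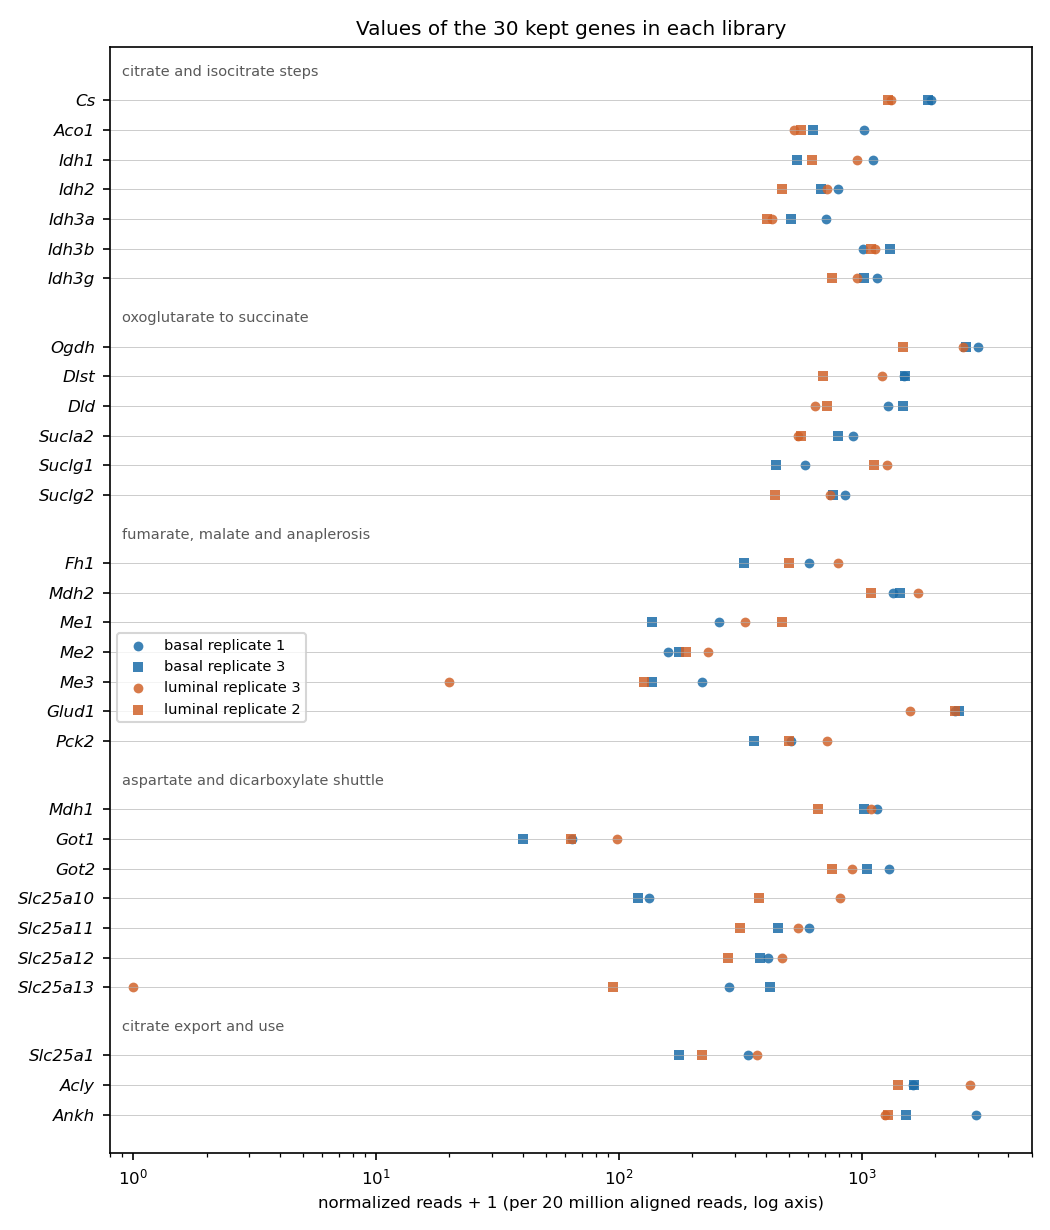
Normalized reads plus 1 (log axis) of the 30 genes that passed the filter in the basal (blue) and luminal (orange) libraries, 1 point per library, grouped by role. Suclg1 and Slc25a10 sit to the right in both luminal libraries, Dld and Slc25a13 to the left. Counting these, 14 of the 30 genes have both luminal libraries below both basal ones and 4 have both above.

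Fumarate and malate enzymes had no common direction. Fh1, fumarase, held 601 and 325 normalized reads in basal and 794 and 499 in luminal libraries, with overlap. Mdh2, the mitochondrial malate dehydrogenase that closes the cycle, held 1340 and 1429 against 1704 and 1091, a fitted log2 fold change of -0.02 ± 0.31 (SE) with a limma adjusted p of 0.979. Both basal libraries lay between the luminal ones, and the sign of this small value turned positive under each of the 3 rescalings. Glud1, glutamate dehydrogenase, held 2417 and 2501 against 1568 and 2400, and Pck2, the mitochondrial phosphoenolpyruvate carboxykinase, 507 and 357 against 716 and 499. The luminal libraries of Glud1 were both lower, although luminal replicate 2 was close to the basal values, and those of Pck2 overlapped the basal range. A processed pseudogene, Glud-ps, held 38 and 71 reads on the same scale in basal and 213 and 187 in luminal libraries, so reads of Glud1 are uncertain to the extent that this copy can take them.

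Of the 3 malic enzymes, which convert malate to pyruvate, Me1 and Me2 had higher luminal averages and Me3 a lower one. None of them was called, and differences between them were not tested. Me1, the cytosolic NADP-dependent form that supplies NADPH, held 257 and 136 in basal and 329 and 467 in luminal libraries, averages of 196.5 ± 85.6 and 398 ± 97.6 (SD, n = 2 each). Both luminal libraries were above both basal ones, but the 2 values within each group were also far apart. The Me1 ratio was 2.03, with a fitted log2 fold change of 1.06 ± 0.53 (SE) and a limma adjusted p of 0.357. It was under 2 with a pseudocount of 10, at 1.98, without basal replicate 3, at 1.55, and without luminal replicate 2, at 1.67. Me2, the mitochondrial NAD-dependent form, held 157 and 175 against 232 and 187, or 25 and 27 against 12 and 6 recovered reads.

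Me3, the mitochondrial NADP-dependent malic enzyme, held 219 and 136 in basal and 19 and 125 in luminal libraries. Luminal replicate 2 was almost at the level of basal replicate 3, and the luminal values rest on 1 and 4 reads. The ratio of averages was 0.406 and the fitted log2 fold change -1.79 ± 1.09 (SE), with a limma adjusted p of 0.437. Over pooled reads the luminal rate was 0.333 of the basal one, with an exact 95% interval of 0.104 to 0.825 that covers counting error only. Without luminal replicate 3 the ratio was 0.704 and without basal replicate 1 it was 0.529, both short of the threshold, while it was 0.107 without luminal replicate 2 and 0.329 without basal replicate 3. An antisense gene, A230065N10Rik, overlaps 3.89% of its annotated exon bases and held 6 and 19 against 0 and 62, and whether counting used strand is not given in the sources used here.

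No enzyme of the shuttle passed a test or either fold threshold, and the 2 largest ratios of the whole set belonged to carriers. Mdh1, the cytosolic malate dehydrogenase, held 1152 and 1013 normalized reads in basal and 1084 and 654 in luminal libraries. Got1, the cytosolic aspartate aminotransferase, held 63 and 39 against 97 and 62, which were 10 and 6 against 5 and 2 reads, too few to order the groups. Got2, its mitochondrial counterpart, held 1290 and 1046 against 910 and 748, without overlap, a fitted log2 fold change of -0.49 ± 0.28 (SE) with a limma adjusted p of 0.413. The groups of Got2 overlapped when scaled to the nuclear protein-coding total. The processed pseudogene Got2-ps1 held 645 and 461 against 620 and 218, so reads of Got2 and of this copy may not have been told apart. Slc25a11, the oxoglutarate-malate carrier, held 601 and 448 against 542 and 312 and overlapped.

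Slc25a10, the dicarboxylate carrier that exchanges malate or succinate for phosphate, held 132 and 119 normalized reads in basal and 813 and 374 in luminal libraries, averages of 125.5 ± 9.19 and 593.5 ± 310 (SD, n = 2 each). Both luminal libraries were above both basal ones, and they differed from each other by more than the basal libraries differed. The ratio was 4.73 and the fitted log2 fold change 2.13 ± 0.55 (SE), with a limma adjusted p of 0.114. The value of basal replicate 3 was not a multiple of 1 read of its library but of 7.92, a spacing that matches none of the 4 libraries, and the gene was therefore left out of the tests on reads. Without basal replicate 3 the ratio was 4.50, without luminal replicate 3 it was 2.98 and without luminal replicate 2 it was 6.48. The antisense gene Gm11788, which overlaps 6.60% of its exon bases, held 19 and 13 in basal and 136 and 0 in luminal libraries.

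Neither aspartate-glutamate carrier was called by a test, and only Slc25a13 had a ratio past the threshold. Slc25a12 (aralar) held 407 and 377 in basal and 465 and 280 in luminal libraries, with the basal values between the luminal ones. Slc25a13 (citrin) held 282 and 416 against 0 and 93, averages of 349 ± 94.8 and 46.5 ± 65.8 (SD, n = 2 each). The luminal values rest on 0 and 3 reads and the basal ones on 45 and 64, and the groups did not overlap. The ratio of averages was 0.133, and over pooled reads the luminal rate was 0.103 of the basal one, with an exact 95% interval of 0.0209 to 0.308 for counting error only. The fitted log2 fold change of -5.15 ± 2.16 (SE) depends on the pseudocount, since a luminal library was at 0, and its limma adjusted p was 0.286, while edgeR gave an adjusted p of 0.0866. With each luminal library set to no less than 3 reads, the log2 ratio was -2.20. The gene passed the filter on low values through the basal libraries alone and was dropped where both groups had to pass. The ratio of averages was 0.267 without luminal replicate 3, and without luminal replicate 2 the luminal side was the library at 0. In bulk samples fewer cells that express a gene and less RNA per cell cannot be told apart.

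Genes of citrate export and use gave no value past the thresholds. Slc25a1, the citrate carrier of the inner mitochondrial membrane, held 338 and 175 normalized reads in basal and 368 and 218 in luminal libraries, and the ranges overlapped in part. Acly, ATP-citrate lyase, which cleaves exported citrate to acetyl-CoA for lipid synthesis, held 1616 and 1637 against 2788 and 1402. The basal libraries agreed closely and lay between the luminal ones, and the fitted log2 fold change was 0.28 ± 0.37 (SE) with a limma adjusted p of 0.703. Without luminal replicate 3 it was -0.21. Ankh, a membrane protein involved in the export of citrate and ATP, held 2931 and 1514 in basal and 1239 and 1278 in luminal libraries. Its luminal libraries were both lower, with basal replicate 1 far above the other 3 libraries, and without basal replicate 3 its ratio was 0.5 or less.

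**Figure D2:**
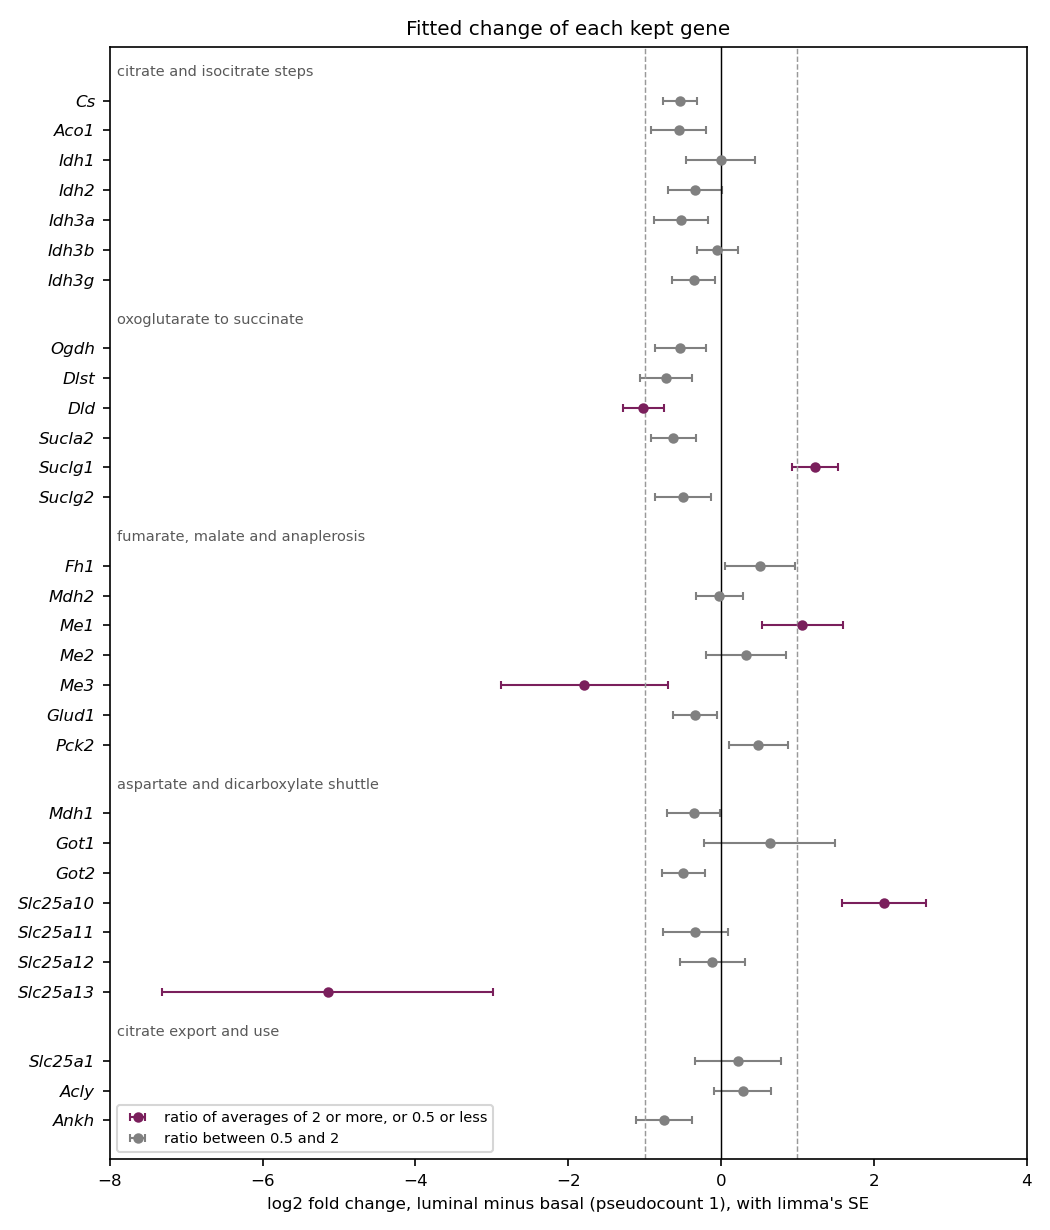
Fitted log2 fold change, luminal minus basal, of the 30 genes that passed the filter, with limma's standard error as bars and dashed lines at -1 and 1, grouped by role. Genes with a ratio of averages of 2 or more or 0.5 or less are purple, from Slc25a10 at 2.13 to Slc25a13 at -5.15, whose bar is the widest.

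Seen by the order of libraries, 14 of the 30 genes (46.7%) had both luminal libraries below both basal libraries, against a background of 27.3%, and 4 genes (13.3%) had both above, against 23.6%. Once an average of at least 100 was required, these shares were 48.3% and 13.8% of the 29 remaining genes, against 31.3% and 21.1% of all genes. The median log2 fold change of the 30 genes was -0.34, that of all genes -0.10. These figures moved with the scaling. After rescaling to nuclear protein-coding genes, which shifted the median of all genes to 0.21, the median of the 30 was -0.03, 4 of 30 genes (13.3%) lay below without overlap against a background of 18.0%, and 6 lay above against 33.5% of all genes. With quantile normalization 8 genes (26.7%) lay below, against 23.5% of all genes. Relative to the median of all genes, the median of the 30 was -0.25 with the deposited values, -0.25 with median-ratio rescaling, -0.14 with quantile normalization and -0.25 with the nuclear protein-coding total. It also depended on the filter and on single libraries. Relative to all genes it was -0.06 with no filter on low values. It was -0.13 when basal replicate 1 was left out and -0.22 when basal replicate 3 was. With luminal replicate 3 left out it was -0.66, and with luminal replicate 2 left out 0.04. The number of genes above without overlap was 9 once basal replicate 1 was left out and 11 once luminal replicate 2 was, where all genes gave 34.3% and 37.5%.

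**Figure D3:**
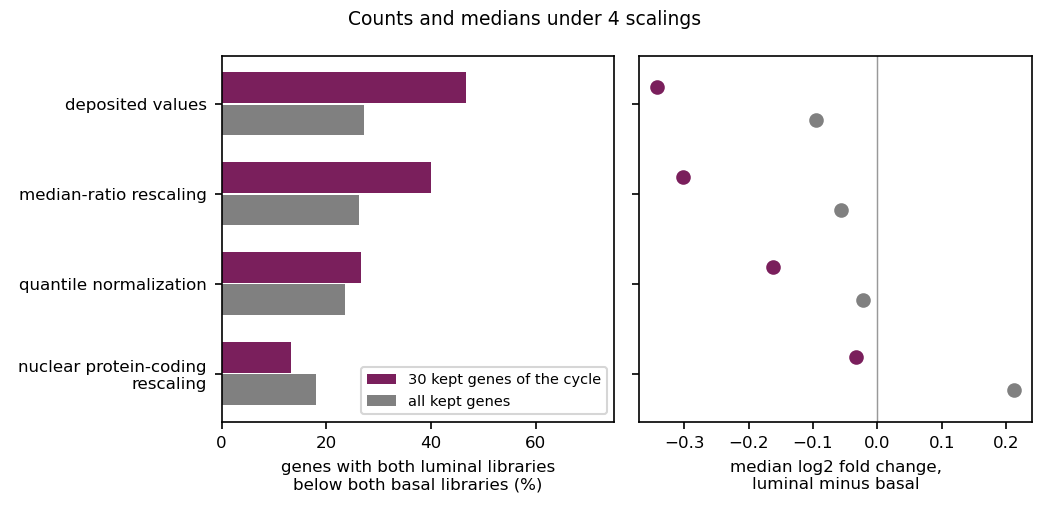
Left, percentage of genes with both luminal libraries below both basal libraries under the deposited scaling and 3 rescalings, for the 30 genes (purple) and all genes that passed the filter (grey). Right, the median log2 fold change of the same genes: the share of the 30 goes from 46.7% to 13.3%, while their median stays left of that of all genes in each row.

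Within a group the libraries also differed in their sums. Summed over the 31 genes, the values were 30110 in basal replicate 1 and 25993 in basal replicate 3, and 26642 and 20849 in luminal replicates 3 and 2, or 0.198%, 0.174%, 0.232% and 0.162% of the nuclear protein-coding total. The 2 libraries with the lower sum in their group, basal replicate 3 and luminal replicate 2, were those with the higher stromal and smooth muscle sums, 253892 and 251481. The part of stromal RNA in these values was not tested.

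Ratios of paired genes within a library do not depend on a common scaling factor where both values are far above the pseudocount of 1, and 10 pairs for the same or linked reactions were followed. Got1 over Got2, cytosolic over mitochondrial aminotransferase, had log2 ratios of -4.33 and -4.71 in basal and -3.22 and -3.57 in luminal libraries, a difference of 1.13. It rests on the few reads of Got1. Mdh1 over Mdh2 gave -0.22 and -0.50 against -0.65 and -0.74, a difference of -0.34, with the groups close to each other.

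Among the citrate pairs, Cs over Acly, synthesis over cleavage of citrate, had log2 ratios of 0.24 and 0.18 in basal and -1.08 and -0.13 in luminal libraries, a difference of -0.82 ± 0.47 (pooled SD) that was -1.29 without luminal replicate 2 and -0.35 without luminal replicate 3. On normalized reads, not corrected for length, the ratio was positive in both basal and negative in both luminal libraries. Slc25a1 over Slc25a10, citrate over dicarboxylate carrier, gave 1.35 and 0.55 against -1.14 and -0.78, a difference of -1.91, and Slc25a10 carries the value off its library's spacing in basal replicate 3.

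Me1 over Me3 gave 0.23 and 0.00 in basal and 4.04 and 1.89 in luminal libraries, a difference of 2.85, and Slc25a12 over Slc25a13 gave 0.53 and -0.14 against 8.86 and 1.58, a difference of 5.03. In both, the luminal ratios rest on at most 4 reads of the second gene, and they were far apart. The 8.86 is set by the pseudocount, since Slc25a13 was at 0 in that library, and the difference was 3.34 with a pseudocount of 10, 1.39 when luminal replicate 3 was left out and 8.67 when luminal replicate 2 was. For Me1 over Me3 the difference was 1.78 and 3.93 when these libraries were left out in turn. For Idh1 over Idh2, Me1 over Me2, Sucla2 over Suclg2 and Idh3a over Idh2 the groups overlapped, with differences of 0.34, 0.74, -0.12 and -0.19. With 1 library left out in turn, these ranged from -0.060 to 0.74, from 0.20 to 1.27, from -0.53 to 0.28 and from -0.46 to 0.086, so that the sign held for Me1 over Me2 only.

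**Figure D4:**
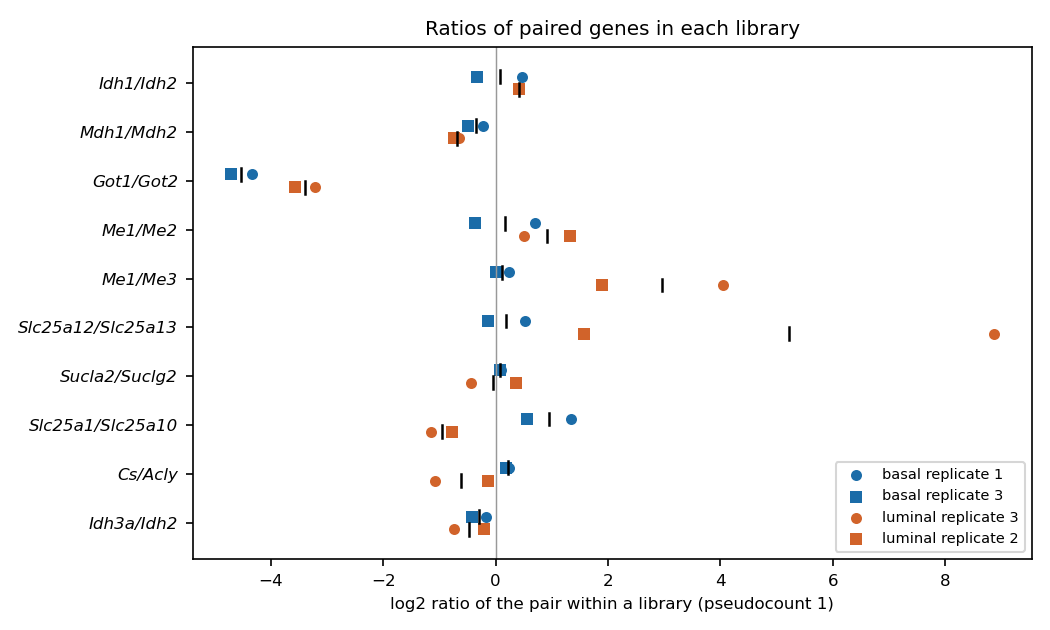
Log2 ratio of the normalized values (pseudocount 1) of 10 gene pairs in each of the 4 libraries, basal in blue and luminal in orange, with black ticks at the group means. Slc25a1/Slc25a10 and Cs/Acly are lower in both luminal libraries and Got1/Got2 higher, while the luminal points of Slc25a12/Slc25a13 are far apart.

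Per length, the highest averages in basal libraries were those of Ankh with 616 normalized reads per kb of annotated exon, Glud1 with 584 and Ogdh with 519. In luminal libraries they were those of Glud1 with 471, Acly with 397 and Mdh2 with 392, followed by Ogdh with 372 and Ankh with 349. The libraries behind an average could differ, as with Ankh at 2931 and 1514 (basal) and Acly at 2788 and 1402 (luminal). The order of averages therefore need not hold in each library. Over all 4 libraries the lowest among genes that passed the filter were Me3 with 8.53, Got1 with 25.7 and Me2 with 25.9. The mitochondrial isocitrate dehydrogenase subunits were unequal, at 101 per kb for Idh3a, 331 for Idh3b and 358 for Idh3g. Of the succinyl-CoA synthetase genes, Suclg1 held 111 per kb in basal and 258 in luminal libraries, against 214 and 138 for Sucla2 and 174 and 127 for Suclg2. Lengths counted all annotated exon bases of a gene and not those of a single transcript, so the order between genes depends on the annotation. On this measure the shared alpha subunit was the lowest of the 3 in basal libraries and the highest in luminal ones.

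Promoter windows of 300 bases, 250 before and 50 after the RefSeq start, were given for 29 of the 31 genes (not Idh3a and Me2). Across both strands, CCAAT, the core of the NF-Y site, occurred in 62.2% of the 37 windows of these genes and in 37.4% of all 32851 windows. GGGCGG, a GC box of the Sp family, occurred in 67.6% and 35.7%. CACGTG, an E-box, was found in 13.5% and 7.15%, GCGCATGC, the nuclear respiratory factor core, in 8.11% and 2.71%, AAGGTCA, a site of oestrogen-related receptors, in 5.41% and 4.72%, and AGAACA, an androgen receptor half-site, in 10.8% and 19%. Windows of a gene with several starts can overlap, as those of Ogdh do, and such a gene counts more than once. By gene, CACGTG was found in 3 of 29 (10.3%) and GCGCATGC in 2 of 29 (6.9%), Ogdh among both. None of these motifs contains another, and a window can hold several. In the sequences printed above, Slc25a13 has a CACGTG and a CCAAT, Dld a CCAAT, Me1 a pair of GC boxes on the opposite strand, and Suclg1 none in the stretch shown. The stretch before the second start of Me1 (chr9:86687278-86687527), not printed, has a CCAAT on the opposite strand and no GC box. Such matches are letters in a window and no evidence of binding.

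A further 56 genes of adjoining steps were described as context, of which 49 passed the filter. A ratio of 2 or more was found for 7 and of 0.5 or less for 10, or 9 and 5 after rescaling to nuclear protein-coding genes. As shares, 14.3% and 20.4% stood against 18.3% and 16.3% of all genes, and 18.4% and 10.2% against 24.3% and 11.5% after that rescaling. limma called none, with 11 (22.4%) at an unadjusted p under 0.05, against 18.5% of all genes. With both groups required to pass the filter it called 1 of 45, lower, where 678 of all 14953 genes were called. At an average of 100 or more it called 1 of 38, also lower, where 532 of all 12551 were. edgeR called 2 of the 46 it could test and DESeq2 1, where 5.17% and 4.39% of all genes were called. Both called Slc1a4 and edgeR called Slc1a5. Slc1a4, a neutral amino acid transporter, held 789 and 715 normalized reads in basal and 136 and 218 in luminal libraries, with an adjusted p of 0.0705 by limma, 0.0224 by edgeR and 0.0485 by DESeq2. Slc1a5, the glutamine transporter, held 1359 and 1384 against 3718 and 2493, with an adjusted p of 0.0966 by limma and 0.0497 by edgeR.

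Among the 8 with the largest ratios and an average of 100 or more, the transaminases of alanine had averages that differed in opposite directions. Gpt, mainly the cytosolic form, held 388 and 448 in basal and 194 and 62 in luminal libraries, and Gpt2, the mitochondrial form, 292 and 238 against 910 and 810, with limma adjusted p of 0.233 and 0.0705. Both basal values of Gpt2 were off their libraries' read spacing. Slc1a3, a glutamate and aspartate transporter, held 382 and 409 against 19 and 125, the luminal values resting on few reads. Aldh5a1, which makes succinate from the GABA shunt, held 88 and 188 against 465 and 436, Dhtkd1, of the oxoadipate dehydrogenase complex, 119 and 130 against 368 and 249, and Asl, argininosuccinate lyase, 238 and 149 against 387 and 561. Abat, the GABA transaminase, held 150 and 565 against 174 and 125, with overlap.

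**Figure D5:**
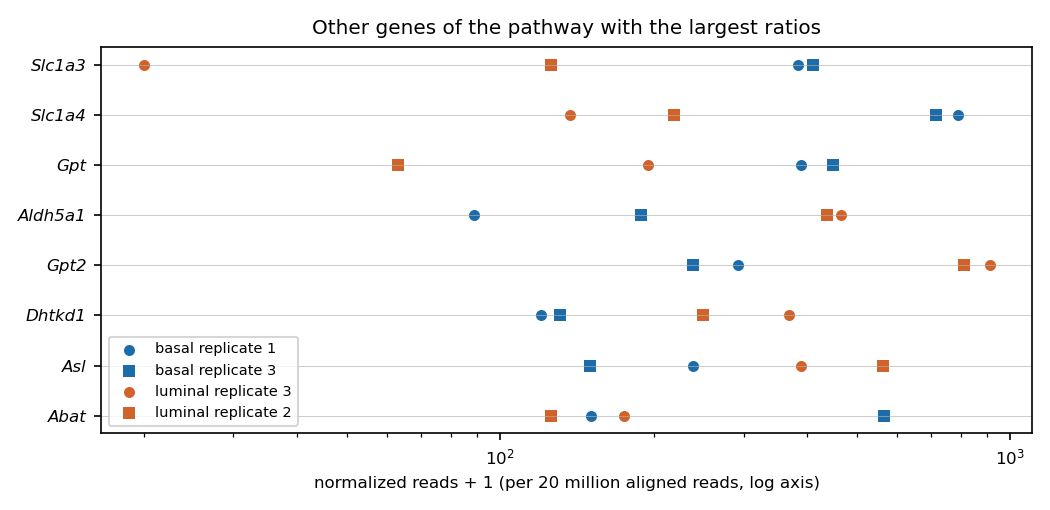
Normalized reads plus 1 (log axis) of the 8 other pathway genes with the largest ratio and an average of 100 or more, in basal (blue) and luminal (orange) libraries, 1 point per library. Slc1a3, Slc1a4 and Gpt sit to the left in both luminal libraries and Aldh5a1, Gpt2, Dhtkd1 and Asl to the right, and Abat overlaps.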

How the data were processed

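RNA-seq libraries of sorted basal and luminal cells were analysed from the table of normalized values. The authors aligned reads to GRCm38 with STAR, counted them on Ensembl genes with HTSeq, scaled the counts to a common number of aligned reads and deposited a whole-number signal per gene and library, the normalized read count. Tool versions, duplicate handling and the strand setting are not given in the sources used here. The columns left unmapped numbered 0. Symbols and exon lengths came from GENCODE vM21 (GRCm38).

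A gene was kept when all libraries of at least 1 group reached 10 and that group's average reached 20. Ratios of group averages, limma 3.58.1 on log2(value + 1) with a trended prior, isozyme ratios and the order of libraries were computed with all 4 libraries, without covariates. The count tests, edgeR 4.0.16 and DESeq2 1.42.0, used recovered reads (values within 0.52 of a multiple of 1 read were taken as on the spacing) of the genes whose values lay on it. Scripts were tested on simulated data. Members and lists were chosen with earlier results of these data known. All listed genes were named with values, with full statistics for those past the fold threshold and for Cs, Mdh2, Got2 and Acly, and of the other genes the 8 with the largest ratio at an average of 100 or more, Slc1a5 being added after its values were seen. Intervals and floors cover counting error only. Figures were drawn with matplotlib 3.10.9, and scripts ran under R 4.3.3 and Python with scipy 1.17.1 and pandas 2.3.3.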

Additional observations from a re-analysis of the deposited data

How the results depend on the processing

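The alternatives tried another low-value filter, pseudocount, scaling or model, or left out each library in turn, with the single library that then remained in a group assumed to vary like the other group. Placing Slc25a13 at its 3-read floor and leaving out Slc25a10 were added after seeing the data and moved no count by over 1.5 times. Of the 31 genes none was called under any of the 13 alternatives, while over all genes the tests made 130 calls in the reported fit and 0 to 991 under the alternatives. The number of genes lower without overlap, 14 as reported, was 8 with quantile normalization, 4 when scaled to the nuclear protein-coding total and 14 to 20 without 1 library (36.8% to 42.4% of all genes, against 27.3% as reported), and the number higher without overlap, 4 as reported, was 4 to 11 without 1 library (31% to 43.9% of all genes, against 23.6%). Their median log2 fold change was -0.033 when scaled to that total and -0.49 to -0.033 without 1 library. The log2 fold change of Mdh2 turned to 0.018 with median-ratio rescaling, 0.22 with quantile normalization, 0.29 with the nuclear protein-coding total, 0.061 with edgeR and 0.075 with DESeq2, and was -0.34 to 0.30 without 1 library. That of Acly was -0.21 to 0.78 without 1 library. Got1 reached a ratio of 2 without basal replicate 1, and Ankh and Dlst one of 0.5 or less without basal replicate 3 and luminal replicate 3. Of the 30 genes, 22 kept their sign under the alternatives that gave them a value, which left out Slc25a10 in edgeR and DESeq2, Slc25a13 where both groups had to pass the filter and Got1 at an average of 100 or more, and 8 did not under at least 1, 4 of them under a rescaling. The causes were not tested. No paired analysis was possible because basal and luminal libraries share a single replicate number. Depth limits the low genes most, since 1 read was worth 31.2 normalized reads in luminal replicate 2.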

Other observations

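Some genes had values that are no whole number of reads in their own library. Of the 561 such genes, 62 were named protein-coding genes, 46 of them in basal columns alone and 16 in luminal columns alone, and 15 had symbols beginning with Slc. Of the values off the spacing in basal replicate 1, 100% lay on the spacing of basal replicate 3. The same held for 34.0% of the values that were on the library's own spacing. In basal replicate 3, 100% lay on a spacing of 7.92 that matches none of the 4 libraries, against 10.9% of its values on the own spacing. In luminal replicate 2, 96.5% lay on one of 18.9, also that of none of the 4, against 2.30%. In luminal replicate 3, 94.2% lay on the spacing of luminal replicate 2, against 0.74%. Among genes of the cycle and its neighbours these were Slc25a10, Gpt2, Acss1 and Slc25a18.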
